A study of Mus musculus with 7 samples.

Results

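The genes described here encode the machinery that imports proteins into mitochondria. They were chosen by symbol, as every gene of the deposited table whose name begins with Timm or Tomm, together with Samm50, Mtx1 to Mtx3, Pam16, Pmpca, Pmpcb and Chchd4. Of 48526 genes in the table, 35 met this rule. Among these, 34 are annotated as protein-coding, and 1, Tomm6os, is an antisense RNA that the rule takes in by its name. Timmdc1 also matches by name, although its protein is known as an assembly factor of respiratory complex I.

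Brain RNA from mice of 24 months was sequenced in 7 libraries, 4 labelled on (glucose) and 3 labelled off (Dox). Both groups are V1SSV2 mice, which the labels also call DT Venus, and the series title names protein complementation of α-synuclein, a presynaptic protein. The sources used here do not give the promoter that drives the constructs, the brain region, the strain or the sex. On and off differ in Dox as well as in construct state, and the effects of these cannot be told apart. No label ties a library to an animal of its own, so the p-values reflect the spread among these 7 samples, which may be technical.

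Nearly all mitochondrial proteins are made in the cytosol and carried into the organelle. The TOM complex is the entry gate in the outer membrane, and from it the SAM complex receives β-barrel proteins. TIM23 with its motor pulls proteins that bear a presequence into the matrix, where the processing peptidase removes the presequence. Small TIM chaperones carry hydrophobic proteins across the intermembrane space to TIM22, which inserts carriers into the inner membrane, and Chchd4 oxidises the cysteines of small proteins so that they stay in that space. Neurons rely on this import along axons and at synapses.

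The deposited values are DESeq2's regularized logarithms (rlog, a log2 scale), in which each gene's deviations were shrunk towards its mean, so differences understate the change of low genes. Depth per library is unknown. Markers were those of a brain: 8 neuronal markers had mean values between 12.97 and 16.4, and of 50 markers in 8 lists, 46 were tested and 0 passed in limma, with 5 at an unadjusted p under 0.05. The summed level of the neuronal markers ran from 17.98 to 18.03 in on and from 17.97 to 18.10 in off. Of these 8 markers 6 had a negative difference, with a median of -0.06. Negative too were 5 of 6 oligodendrocyte (median -0.06), 5 of 6 microglial (-0.07) and 5 of 6 choroid plexus and ependymal markers (-0.03). Blood markers were negative in 4 of 6 (-0.06) and astrocyte markers in 3 of 6 (0.01). The part of these markers in the results was not tested. The summed level of 6 muscle markers, the lowest of them at a mean of -1.25, ran from 7.18 to 7.27 in on. In off it ran from 7.30 to 7.46, without overlap. Only 2 of the 6 were tested, 1 with a negative and 1 with a positive difference. The sum mostly follows Acta1, the highest of them, at 6.92 to 7.03 in on and 7.05 to 7.25 in off. The part of this sum in the results was not tested. Of 6 endothelial and mural markers 5 had a positive difference, with a median of 0.11. Their summed level was 13.14 in on replicate 1, 13.47 to 13.53 in on replicates 2 to 4 and 13.18 to 13.38 in off. Choroid plexus and ependymal markers summed to 15.01, 14.63 to 14.80 and 14.82 to 14.87 in the same order. Oligodendrocyte markers summed to 18.27, 18.03 to 18.14 and 18.10 to 18.24. These 3 lists thus set on replicate 1 apart from its group, and their part in the results was not tested. On replicate 1 stood apart across all genes as well. On the first principal component it lay at -4.10. On replicates 2 to 4 lay between 7.19 and 9.15, and the off replicates between -8.64 and -3.56. Results are therefore given with and without it.

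A mean value of 3 or more was required for testing, which 32 of the 35 genes met. The other 3 were low in every library. Tomm20l, a relative of Tomm20, lay between -1.87 and -1.85 in on and between -1.87 and -1.86 in off. Timm8a2, a relative of Timm8a1, lay between -0.083 and -0.068 in on and between -0.071 and -0.049 in off. Tomm6, a small TOM subunit, lay between 1.40 and 1.42 in on and between 1.39 and 1.44 in off, and 84.2% of its exonic bases are shared with exons of Gm21981, Tomm6os or Usp49 (76.0% counting its own strand alone). How reads in shared exons were counted is not given, so the value of Tomm6 is uncertain.

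Promoter letters from RefSeq (build GRCm38.p6, 250 bases before to 50 after the start) were at hand for 32 of the 35 genes, in 34 windows. The 2 genes that later pass the test are shown first, as the 80 bases before the start, with CG pairs in capitals. Tomm5 (chr4:45108114-45108193, minus strand) holds 1 such pair and Timm13 (chr10:80900970-80901049, minus strand) holds 4.
Tomm5: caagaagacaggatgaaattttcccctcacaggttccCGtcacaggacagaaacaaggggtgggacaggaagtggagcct
Timm13: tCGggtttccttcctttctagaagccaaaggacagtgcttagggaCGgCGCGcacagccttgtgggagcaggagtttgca
Neither window of these genes holds an exact match to the 4 motifs searched on both strands, which were CCGGAAGT (bound by ETS factors), ATGGCGGC (YY1), CACGTG (E-box) and the palindrome of NRF1.

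The YY1 letters were found in 6 member windows (17.6%), against 3.89% of windows of tested genes and 2.24% of all 32851 windows. The 6 sites are shown because they begin 12 to 19 bases after the annotated start, on the gene's own strand. That stretch was set by these same 6 sites. It holds 14.2% of the first matches on that strand in all windows, and this share is not an independent background for them. Capitals mark the motif.
Mtx1: gagcgtacaagATGGCGGCgcccatggagc
Mtx3: gccccggcaagATGGCGGCccccatggagc
Samm50: ggtggtacaacATGGCGGCgctcggcacgc
Pmpcb: ccaccgcagagATGGCGGCggccgctctat
Timm44: gctcttccaacATGGCGGCggcagctctgc
Timm50: gtcagcgcaagATGGCGGCctcggcggctc
Their positions are chr3:89213875-89213904 (minus), chr13:92844776-92844805 (plus), chr15:84192241-84192270 (plus), chr5:21737167-21737196 (plus), chr8:4275869-4275898 (minus) and chr7:28312014-28312043 (minus). The motif itself begins with ATG, so a match may be coding sequence.

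The ETS letters were found in the windows of 10 genes (29.4% of member windows), against 6.63% of windows of tested genes and 3.89% of all windows. Examples from 4 role groups follow, with the motif or its reverse complement ACTTCCGG in capitals.
Tomm70a: gccttctgaccCCGGAAGTggttctcccct
Mtx2: gggcggagcagCCGGAAGTgccggcgcgcg
Timm23: tcgcgcttcccACTTCCGGgccgcacacag
Timm10: tagacttccttCCGGAAGTgacccacgtgc
These lie at chr16:57121623-57121652 (plus), chr2:74825776-74825805 (plus), chr14:32201921-32201950 (minus) and chr2:84827026-84827055 (plus). The E-box letters were in 7 member windows (20.6%), against 9.19% of windows of tested genes, and the NRF1 letters in 0 of 34, against 1.73%. The 9 tested genes with an ETS match had a median difference of -0.07, and the 20 with a window but no match had one of -0.12. With a trend in GC content and transcript length removed, these medians were -0.04 and -0.06, and the difference between them was not tested.

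The comparison asks how brain expression differs when the constructs are on rather than off. Among the import genes, differences leaned to lower values in on and were small. Tomm5, a small subunit of the TOM gate, and Timm13, a small TIM chaperone, passed as lower in on with all libraries as deposited. In the 7 fits with 1 library left out, Tomm5 passed in 1 and Timm13 in 3. Neither passed in limma with the trend in GC content and length removed (adjusted p of 0.0779 and 0.0607). Of the 32 tested genes, 28 had a negative difference, and the median was -0.09 (lowest -0.31, highest 0.06), beside a median of 0.00 over all 17896 tested genes, of which 48.4% were negative. Passing limma at an adjusted p under 0.05 were 2 of the 32, both lower (6.25%). Over all tested genes 2.60% passed in either direction and 1.79% passed as lower in on. Another 12 of the 32 had an unadjusted p under 0.05, which makes 14 in all, beside 20.7% of all tested genes. For 13 import genes (40.6%) the groups' values were fully apart, 12 of them lower and 1 higher in on, beside 15.2% of all tested genes in either direction and 8.09% in the lower direction. All these genes were measured in the same 7 libraries, so their counts are not independent.

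**Figure D1:**
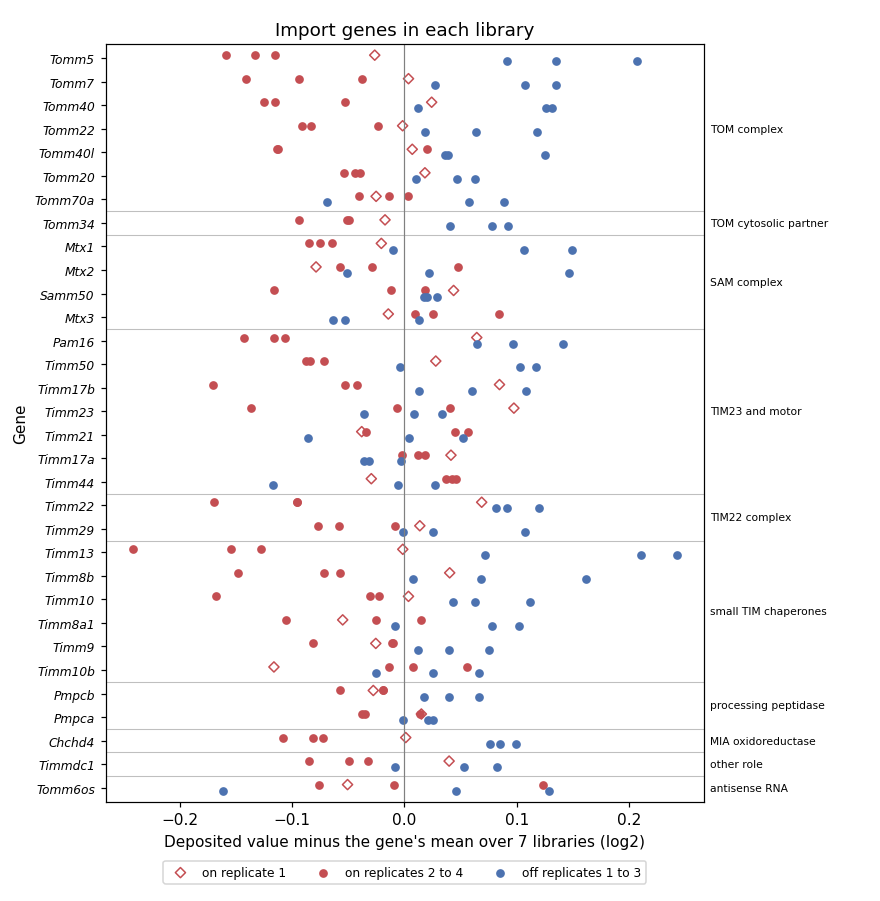
Deposited value of each tested import gene in each library, minus the gene's mean over the 7 libraries (log2, horizontal axis), with genes grouped by role down the page. Red marks are on libraries, with replicate 1 as an open diamond, and blue marks are off libraries; off replicate 2 was the highest library for 16 of the 32 genes.

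With on replicate 1 left out, 12 of the 32 genes passed (37.5%), all lower in on, beside 8.02% of all tested genes that then passed as lower. They were Tomm5, Tomm7, Tomm22, Tomm40, Tomm34, Mtx1, Timm50, Pam16, Timm22, Timm13, Timm8b and Chchd4. On replicate 1 was picked for its own values, which lay near those of off. Without it the genes called rose from 466 to 2917 over all tested genes, 1481 of them higher in on. The smaller adjusted p-values without it are therefore not independent evidence. The mean deviation of the 32 genes was 0.002 in on replicate 1, -0.065 to -0.039 in on replicates 2 to 4, and 0.036 to 0.076 in off. On replicate 1 was the highest on library for 21 of the 32 genes. With any other library left out, at most 1 import gene passed, Timm13, and 8 to 16 had an unadjusted p under 0.05. The share of all tested genes at such a p was not computed in these fits, so these counts lack a background.

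The TOM complex gave 7 tested genes, all with a negative difference, a median of -0.12 and 1 passing lower. Over all tested genes 48.4% were negative, 20.7% had an unadjusted p under 0.05 in limma and 1.79% passed lower. Tomm5 (ENSMUSG00000078713, chromosome 4, 45105208 to 45108114, minus strand) helps to assemble and stabilise the TOM pore. It had 8.72, 8.63, 8.61 and 8.59 in on replicates 1 to 4, and 8.88, 8.95 and 8.84 in off replicates 1 to 3. All 4 on libraries lay below all 3 off libraries. The means were 8.64 ± 0.06 in on (SD, n = 4) and 8.89 ± 0.06 in off (SD, n = 3), a difference of -0.25 ± 0.05 (SE, limma adjusted p = 0.027) or 0.84 times the off level on the linear scale. Its adjusted p was 0.00232 without on replicate 1. Leaving out any other library took it out of the genes called. The adjusted p was then 0.0598, 0.105 and 0.0941 for on replicates 2, 3 and 4, and 0.057, 0.162 and 0.0768 for off replicates 1, 2 and 3.

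Tomm7, another small subunit, known for keeping the kinase of the mitophagy pathway at the outer membrane, had 10.42, 10.32, 10.38 and 10.27 in on and 10.52, 10.55 and 10.44 in off. The groups did not overlap, and the difference of -0.16 ± 0.05 (SE) had an adjusted p of 0.0822. Tomm22, a receptor that also organises the complex, differed by -0.12 ± 0.04 (SE), also without overlap. Tomm40, the β-barrel that forms the pore, had 10.89, 10.74, 10.81 and 10.75 in on and 10.88, 10.99 and 10.999 in off, so on replicate 1 lay above off replicate 1. Its difference was -0.16 ± 0.05 (SE, adjusted p = 0.0878). Tomm40l, its paralog, differed by -0.12 ± 0.05 (SE), and 64.3% of its exonic bases lie opposite exons of Nr1i3. The receptors for presequences and for carriers, Tomm20 and Tomm70a, had the smallest differences of the complex, -0.07 ± 0.04 and -0.04 ± 0.04 (SE). Tomm34, a cytosolic partner of the import receptors, had 11.16, 11.13, 11.09 and 11.13 in on and 11.27, 11.22 and 11.26 in off, with no overlap and a difference of -0.12 ± 0.04 (SE, adjusted p = 0.089).

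The 4 genes of the SAM complex had a median of -0.05, 3 negative and 1 positive. In limma 0 passed and 1 gene had an unadjusted p under 0.05, near the 20.7% of all tested genes. That gene was Mtx1, which encodes metaxin 1, an outer membrane subunit. It had 9.51, 9.44, 9.45 and 9.46 in on and 9.52, 9.68 and 9.63 in off, close together in on and spread in off, and just apart. Its difference was -0.14 ± 0.05 (SE, adjusted p = 0.121), and 30.1% of its exonic bases lie opposite exons of Thbs3 or Gm43737. The central β-barrel Samm50 differed by -0.04 ± 0.04 (SE) and Mtx2, the partner of Mtx1, by -0.07 ± 0.05. Mtx3 had the largest positive difference of the 32 genes, 0.06 ± 0.04 (SE, adjusted p = 0.397), with 11.65 to 11.75 in on and 11.60 to 11.68 in off.

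**Figure D2:**
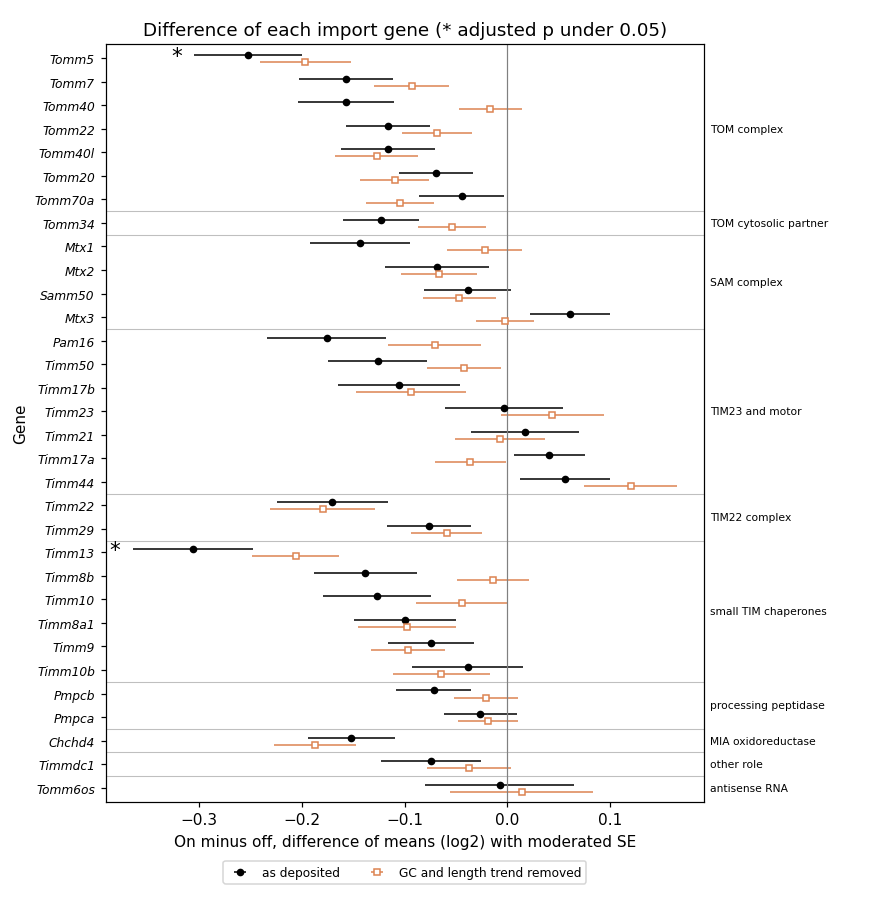
Difference of means, on minus off (log2, horizontal axis), with its moderated SE for each tested import gene, as deposited (black circles) and after removal of a GC and length trend (orange squares). Stars mark Tomm5 and Timm13, which passed as deposited; after the removal 0 of the 32 passed and 29 were negative.

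TIM23 and its motor were mixed. Of 7 genes 4 were negative (57.1%), near the 48.4% of all tested genes, and 3 were positive. In limma 0 passed and 2 had an unadjusted p under 0.05, near the 20.7% of all tested genes. The median difference was -0.003. That median was -0.04 without on replicate 1, and also -0.04, with 5 of 7 negative, after a trend with GC content and length was removed. Pam16, a J-like protein that restrains the motor's chaperone cycle, had 8.71, 8.53, 8.54 and 8.50 in on and 8.71, 8.79 and 8.74 in off. On replicate 1 lay at the level of off replicate 1, and the difference was -0.18 ± 0.06 (SE, adjusted p = 0.111). The transcript of Gm9803 matches 89.6% of Pam16's at up to 100% identity, so its reads may be shared. Timm50, the receptor of the complex, differed by -0.13 ± 0.05 (SE). The channel subunit Timm23 had 8.83 to 9.07 in on and 8.93 to 9.002 in off, a difference of -0.00 ± 0.06 (SE). It is uncertain too, since 95.6% of its transcript matches Gm10273 at up to 99.9% identity.

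Timm17a and Timm17b, alternative partners of the channel, had differences of 0.04 ± 0.03 and -0.11 ± 0.06 (SE), and neither passed. Timm17a was the 1 import gene with all on libraries above all off libraries, 11.57 to 11.62 in on against 11.54 to 11.57 in off, although the sign turned to -0.04 with that trend removed. Timm21, a subunit that links the complex to TOM, differed by 0.02 ± 0.05 (SE). Timm44, which tethers the import motor to the channel, had 10.80, 10.87, 10.87 and 10.87 in on and 10.71, 10.82 and 10.86 in off. On replicates 2 to 4 lay above all off libraries and on replicate 1 did not, with a difference of 0.06 ± 0.04 (SE, adjusted p = 0.494).

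Of the TIM22 complex, Timm22, the insertase for carriers, had 9.75, 9.52, 9.59 and 9.59 in on and 9.78, 9.77 and 9.80 in off. On replicate 1 lay just under the off libraries and the other 3 well under them. The difference was -0.17 ± 0.05 (SE, adjusted p = 0.102) with all libraries and -0.22 ± 0.04 (SE, adjusted p = 0.00458) without on replicate 1. Timm29, a subunit of the same complex, differed by -0.08 ± 0.04 (SE). In this group 0 of 2 passed in limma with all libraries. At an unadjusted p under 0.05 was 1 of them, beside 20.7% of all tested genes.

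All 6 tested small TIM chaperones had a negative difference, beside 48.4% of all tested genes. Their median was -0.11 and 1 passed lower, beside 1.79% of all tested genes. Timm13 (ENSMUSG00000020219, chromosome 10, 80899450 to 80900969, minus strand), which pairs with Timm8 proteins to carry inner membrane precursors, had the largest difference of the import genes. It had 9.94, 9.70, 9.81 and 9.79 in on and 10.01, 10.18 and 10.15 in off. The groups did not overlap, with on replicate 1 and off replicate 1 nearest to each other. The means were 9.81 ± 0.10 in on (SD, n = 4) and 10.12 ± 0.09 in off (SD, n = 3), a difference of -0.31 ± 0.06 (SE, limma adjusted p = 0.0182) or 0.81 times the off level. Its adjusted p was 0.000547 without on replicate 1, 0.0437 without on replicate 2 and 0.0189 without off replicate 1. It missed the threshold at 0.0712 and 0.0634 without on replicates 3 and 4, and at 0.134 and 0.0965 without off replicates 2 and 3.

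Its partners Timm8b and Timm8a1 differed by -0.14 ± 0.05 and -0.10 ± 0.05 (SE). The transcript of Gm9797 matches 43.1% of Timm8a1's at up to 100% identity, so reads of Timm8a1 may be shared. Mutation of the human counterpart of Timm8a1 causes a deafness and dystonia syndrome. Timm9 and Timm10, which form the other chaperone of this space, differed by -0.07 ± 0.04 and -0.13 ± 0.05 (SE), both with on and off libraries apart. Timm10b, which docks Timm9 and Timm10 on TIM22, differed by -0.04 ± 0.05 (SE) with overlap. Of its exonic bases 22.1% are shared with exons of Arfip2, Gm22504 or Gm45799 (10.5% counting its own strand alone).

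Chchd4 (ENSMUSG00000034203, chromosome 6, 91462172 to 91473546, minus strand), the oxidoreductase of the intermembrane space, had 10.02, 9.94, 9.91 and 9.95 in on and 10.10, 10.12 and 10.10 in off. The off libraries were close together and all above the on libraries. The difference of -0.15 ± 0.04 (SE) missed the threshold with all libraries (adjusted p = 0.0692) and passed without on replicate 1 (-0.17 ± 0.04, SE, adjusted p = 0.0101). Both processing peptidase subunits had a negative difference, beside 48.4% of all tested genes, with a median of -0.05. In limma 0 of 2 passed and 0 had an unadjusted p under 0.05, beside 20.7% of all tested genes. Pmpcb, the catalytic subunit, had 10.83, 10.84, 10.80 and 10.84 in on and 10.90, 10.92 and 10.87 in off, without overlap, a difference of -0.07 ± 0.04 (SE, adjusted p = 0.283). Pmpca, the subunit that binds substrates, differed by -0.03 ± 0.04 (SE), and its 7 values lay within 0.06 of each other, the narrowest range of the 32 genes. Of its exonic bases 20.4% lie opposite exons of Inpp5e.

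Timmdc1, the complex I assembly factor, had 9.20, 9.11, 9.13 and 9.07 in on and 9.21, 9.24 and 9.15 in off, overlapping through on replicate 1. It differed by -0.07 ± 0.05 (SE, adjusted p = 0.416). The antisense RNA Tomm6os had 7.25, 7.22, 7.29 and 7.42 in on and 7.14, 7.35 and 7.43 in off, a difference of -0.01 ± 0.07 (SE). Its value is uncertain, since 51.3% of its exonic bases are shared with exons of Frs3, Gm21981, Prickle4 or Tomm6.

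**Figure D3:**
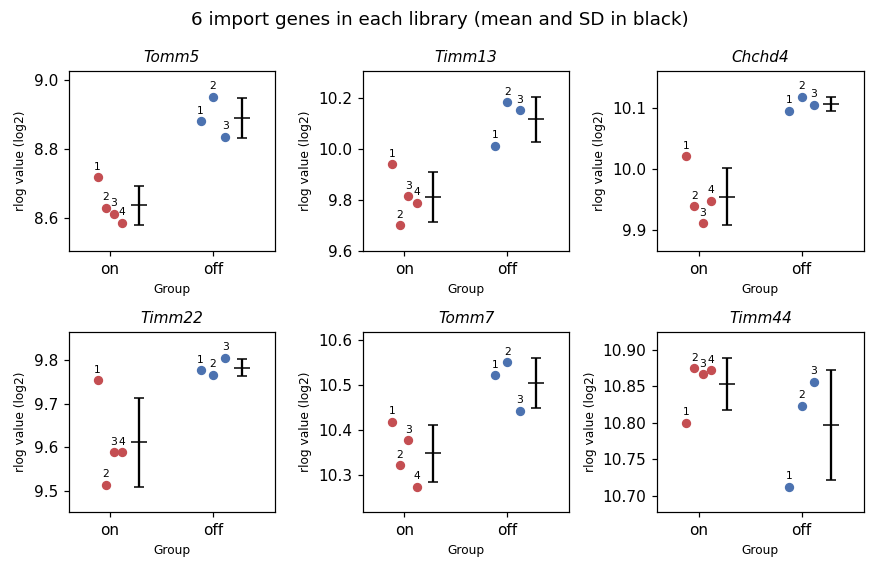
Deposited rlog values (log2, vertical axes with separate ranges) of 6 import genes in on (red) and off (blue) libraries, numbered by replicate, with mean and SD in black. Tomm5, Timm13, Chchd4, Timm22 and Tomm7 have all on libraries below all off libraries; Timm44 overlaps.

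The order of the libraries was not the same in every role group. In the TOM complex the mean deviation was -0.0001 for on replicate 1, -0.095 to -0.045 for on replicates 2 to 4, and 0.035 to 0.121 for off. The small TIM chaperones had -0.026 for on replicate 1, -0.083 to -0.051 for on replicates 2 to 4, and 0.052 to 0.107 for off. In TIM23 with its motor, on replicate 1 lay among the off libraries, at 0.035 against 0.015 to 0.037. In TIM22 it lay just below them, at 0.041 against 0.058 to 0.094. In these 4 role groups on replicates 2 to 4 lay below all off libraries. The SAM complex had -0.018 for on replicate 1, inside the -0.024 to -0.017 of on replicates 2 to 4, and 0.005 to 0.042 for off, with off replicate 1 highest. Off replicate 1 was also the highest library for Tomm34, and on replicate 3 its lowest.

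**Figure D4:**
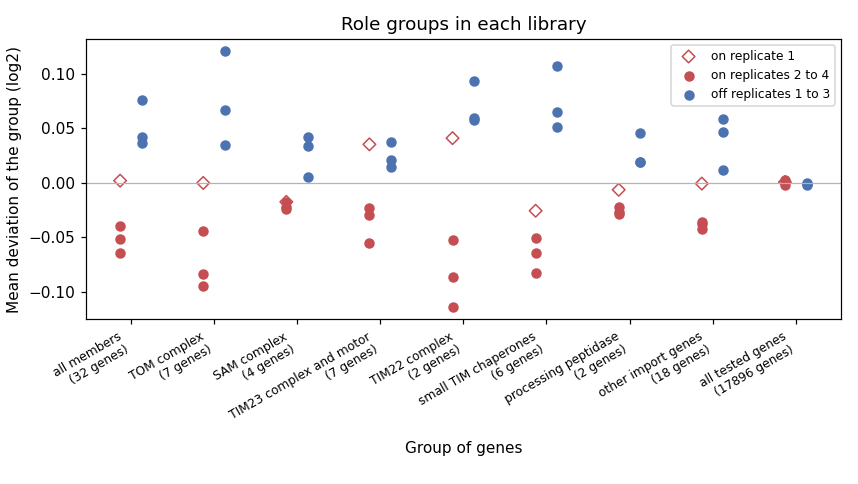
Mean deviation from the gene mean (log2, vertical axis) of each group of genes in each library, with on libraries in red (replicate 1 as an open diamond) and off libraries in blue. For all 32 import genes the on libraries lie at 0.002 or below and the off libraries at 0.036 or above, while the 17896 tested genes stay near 0.

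Among 18 other genes of import and of folding after it, listed by role rather than by value, 1 passed lower in on and 0 passed higher; 6 had an unadjusted p under 0.05 and 13 were negative, with a median of -0.05. Of all tested genes 1.79% passed lower, 20.7% had such a p and 48.4% were negative. Romo1, a small subunit of the TIM23 complex, was the gene that passed. It had 9.08, 8.86, 8.82 and 8.91 in on and 9.21, 9.35 and 9.30 in off, with no overlap. The difference was -0.365 ± 0.06 (SE, adjusted p = 0.0116). Romo1 had an adjusted p of 0.000174 without on replicate 1. It missed the threshold at 0.0535 without on replicate 3, and at 0.0928 and 0.0768 without off replicates 2 and 3. Hspe1, the co-chaperonin of the matrix, and Mtch1, an outer membrane protein of the carrier family, differed by -0.21 ± 0.05 and -0.18 ± 0.05 (SE), with adjusted p of 0.0548 and 0.0608. Without on replicate 1 both passed (0.0197 and 0.00162), and Hspe1 also passed without on replicate 2 (0.0271). The matrix chaperone Hspa9, the ATPase of the import motor, differed by 0.00 ± 0.04 (SE).

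Beside related groups of nuclear genes for mitochondria, measured in the same libraries, the import genes had a median between those of complex I (-0.12 over 46 genes, 12 passing lower) and of the mitochondrial ribosome (-0.07 over 77, 1 passing lower). The Slc25 carriers, many of which are cargo of TIM22, had -0.05 over 42 genes, 1 passing lower. Over all tested genes 1.79% passed lower, and the counts of the ribosome and the carriers are close to that share. With the trend in GC content and length removed, described next, the order was another one: the medians were -0.06 for the import genes, -0.03 for complex I, with 1 gene passing, -0.03 for the ribosome and -0.02 for the carriers. The lean as deposited was not particular to the import genes. Negative were 87.5% of them, 91.3% of complex I, 81.8% of the ribosome and 76.2% of the carriers, beside 48.4% of all tested genes. On and off did not overlap for 40.6%, 39.1%, 28.6% and 16.7% of these groups in turn, beside 15.2% of all tested genes. These differences between groups of genes were not tested.

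Transcript length and GC content moved with the differences. Across the 32 genes, which share libraries, Spearman's rho of the difference was 0.57 with transcript length and -0.42 with GC content, beside 0.39 and -0.39 over 17831 tested genes. The 15 import genes with transcripts under 2000 bases had a median of -0.13, and the 17 longer ones one of -0.07. Both genes that passed are short, Tomm5 with 738 bases and Timm13 with 1225. Among all tested genes cut into 10 classes by length, the 3 classes with median lengths of 767, 1358 and 1825 bases had median differences of -0.03, and the longest class had 0.08. Per library, the deviations of all tested genes had a rho with transcript length near 0 in on replicate 1 (-0.04), of 0.27 to 0.29 in on replicates 2 to 4, and of -0.32 to -0.23 in off. With GC content the rho was 0.17 in on replicate 1, -0.47 to -0.14 in on replicates 2 to 4, and -0.11, 0.24 and 0.59 in off replicates 1 to 3.

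**Figure D5:**
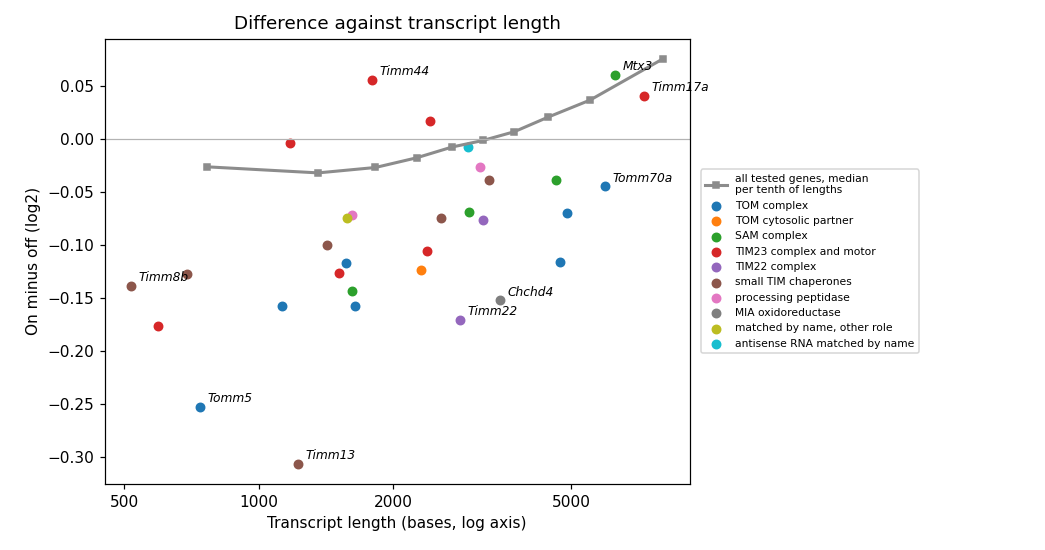
Difference, on minus off (log2, vertical axis), against transcript length (bases, log axis) for the 32 tested import genes, coloured by role, with the median of all tested genes in each of 10 length classes as a grey line. Below 0 lie 28 of the 32 genes, Timm13 at -0.31 and Tomm5 at -0.25 lowest; Timm44 lies at 0.06.

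A smooth trend with GC content and length was removed from each library. The median of the import genes was then -0.06, with 29 of 32 negative, beside 0.00 over all tested genes. After this, 0 of the 32 passed in limma, beside 0.341% of all tested genes, and 10 had an unadjusted p under 0.05, beside 16.2%. Of the 32 differences 5 changed sign, all of them small: those of Timm17a, Mtx3 and Timm21 became negative, and those of Timm23 and Tomm6os positive. Timm13 had -0.21 ± 0.04 (SE, adjusted p = 0.0607), Tomm5 -0.20 ± 0.04 (0.0779) and Romo1 -0.22 ± 0.05 (0.076). The differences of Chchd4 (-0.19 ± 0.04, SE, adjusted p = 0.0721) and Timm22 (-0.18 ± 0.05, SE) were not smaller than before. Those of Tomm40 (-0.02), Timm8b (-0.01) and Mtx1 (-0.02) were near 0. Tomm20 and Tomm70a, whose transcripts are long, had -0.11 ± 0.03 and -0.10 ± 0.03 (SE).

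With the trend removed and on replicate 1 left out, 9 of the 32 passed, 8 lower and 1 higher. In that fit 3.88% of all tested genes passed lower and 5.19% higher. Of the 12 called without on replicate 1 as deposited, 5 were among these: Chchd4 (-0.22 ± 0.03, SE, adjusted p = 0.00306), Timm22 (-0.23 ± 0.04, 0.00425), Timm13 (-0.23 ± 0.04, 0.00541), Tomm5 (-0.21 ± 0.04, 0.012) and Tomm7 (-0.14 ± 0.04, 0.0371). The others passing lower were Tomm20, Tomm40l and Tomm70a. Timm44 passed higher, at 0.15 ± 0.04 (SE, adjusted p = 0.0265).

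Levels of different genes can be set side by side only per length, here as the rlog value minus the log2 of transcript length in kilobases, averaged over all libraries. On this scale of levels Timm8b was highest at 11.77, then Tomm20 at 11.27, Tomm70a at 10.54 and Tomm22 at 10.32. The processing peptidase subunits were close, Pmpca at 10.25 and Pmpcb at 10.16, as were Mtx3, Mtx2 and Mtx1 of the SAM complex at 9.02, 8.91 and 8.83. Other paralogs were further apart. Tomm40 stood at 10.15 and Tomm40l at 8.77, and Timm17a at 8.71 and Timm17b at 7.71. The lengths behind these values differ widely, at 1646 and 4712 bases for the first pair and 7280 and 2381 for the second. Timm8b was above Timm8a1 at 5.39, but that value is uncertain, since Gm9797 matches part of the Timm8a1 transcript. The length is that of the longest transcript in the annotation, which may not be the one used in brain. Small gaps on this scale therefore cannot be read as an order, and the larger gaps between paralogs are uncertain too.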

How the data were processed

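Poly(A) RNA libraries were made with a stranded Illumina kit, per the labels' protocols. The authors deposited rlog values on the log2 scale for 48526 genes in 7 libraries. The submitters' processing notes list STAR 2.5.2, DESeq2 1.16.1, Subread 1.5.3, cutadapt 1.9.1 and BWA 0.7.14-r1136 with GRCm38, and no role for each. The sources used here do not give the strand setting or annotation release. Symbols were found for 99.0% of genes. GENCODE M21 (GRCm38) gave each gene's GC content and length, from its longest basic transcript.

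In R 4.3.3, limma 3.58.1 gave the on minus off difference of the 17896 genes with a mean value of 3 or more. The model had a group term and an intensity trend, and its two-sided p-values were adjusted by Benjamini-Hochberg over all tested genes, at 0.05. The trend with GC content and length was fitted per library in 3 classes of mean value with mgcv 1.9.3. Near-identical copies were matches of at least 100 bases at 95% identity. The fit was also run on simulated data with noise drawn independently for each gene and library, and no result here rests on that run. No 2 libraries held identical values. The import genes, lists and alternatives were chosen with earlier results of these data known. Every import gene is named, with all libraries given for those called and for the smallest p of each role group.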

Additional observations from a re-analysis of the deposited data

Results flagged for a closer look

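A gap test of the 4 on libraries, which singles out about 1 in 20 such groups by chance, was run on 48 values and singled out 6. All 48 come from the same 4 libraries and are not independent, so the 6 cannot be read against that rate. On replicate 1, already set apart above on the first principal component, lay apart in 5 of the 6. Timm50 had 9.81 there, against 9.69 to 9.71 in on replicates 2 to 4, and Timm44 had 10.80, against 10.87. The mean deviation of the 18 other import genes was -0.0007, against -0.043 to -0.036. On the first principal component on replicate 1 lay at -4.10, against 7.19 to 9.15, and the deviations of all tested genes ran with transcript length at a rho of -0.0445, against 0.269 to 0.287. On replicate 2 lay apart in Timm8a2, at -0.083 against -0.070 to -0.068, a gene too low to be tested.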

How the results depend on the processing

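The count of genes called, 466 with 2 import genes, was 7 with 0 without a filter, 237 with 2 without the intensity trend, 2215 with 12 with array weights, and 43 to 2917 with 0 to 12 when 1 library was left out. With the GC and length trend removed it was 61 with 0, and 1623 with 9 when on replicate 1 was also left out. The median of the import genes, -0.088, was -0.0565 and -0.0588 in these last fits and -0.105 to -0.0801 when 1 library was left out. With the replicate number as a block 30 genes with 0 import genes were called, and with the block and the trend removed 8 with 0, at a median of -0.0579. Libraries with the same number did not deviate together (correlations of -0.23, -0.10 and 0.02), so the numbers are not treated as a pairing. A filter at a mean of 5, median centring, quantile normalization and a robust prior each called the same 2 import genes. Where 0 import genes passed in limma, those at an unadjusted p under 0.05 were 18 without a filter, 10 with the trend removed, 9 with the block, 7 with both, and 8 to 16 with 1 library left out. Of all tested genes 16.2% had such a p with the trend removed. That share was not computed in the other fits listed here, so their counts cannot be set beside a background. Only relative levels are measured, and unknown depth limits the precision of each value.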
